A study of Mus musculus with 20 samples.

Results

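The genes described here are those of folding and quality control in the endoplasmic reticulum (ER), the compartment in which secreted and membrane proteins are folded. They were chosen by name: 34 gene symbols, taken where the probe annotation assigned a probe set to them. Of these, 32 had a probe set and were tested, among 11844 genes tested and 19505 genes on the array, and Manf and Pdia4 were not named on it. Each of the 32 was read by 1 probe set. By role they were 3 sensors and transcription factors, 10 chaperones and co-chaperones, 6 isomerases and foldases, 9 genes of ER-associated degradation and 4 of translocation and glycosylation.

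RNA was measured in the livers of 20 male ob/ob mice, an obese strain without leptin, 5 in each of 4 groups. The groups were PM2.5 with metformin in the drinking water (the combined group), PM2.5 alone, metformin in the drinking water alone, and filtered air. PM2.5 is fine airborne particulate matter, and metformin is a glucose-lowering drug whose dose was set by body weight. The protocol, given in the same words for every group, placed mice in an exposure chamber for 6 hours per day over 2 weeks, and the metformin label does not say which air these mice breathed. All groups lack leptin signalling, no lean mice were included, and whole liver was used, so that fewer cells of a type and less RNA per cell cannot be told apart. Mouse numbers follow the order of deposit and pair no mice across groups, and the labels give no batch.

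The liver makes most plasma proteins, and its hepatocytes hold an extensive ER. Unfolded protein in the ER is read by 3 kinds of membrane sensor, encoded by Ern1, Atf6 and Eif2ak3. Ern1 protein (IRE1) splices Xbp1 mRNA and Atf6 protein is cut to release its active part, and the resulting factors switch on chaperone and degradation genes, while the kinase encoded by Eif2ak3 (PERK) lowers translation and leads to Atf4. Array signals of Xbp1 and Atf6 do not show splicing or cleavage.

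Each value is a log2 signal of 1 array per mouse, as deposited. Of the 32 genes, 24 lay above the 95th percentile of the negative-control probe sets on all 20 arrays. Dnajb11 did so on 19, Creld2 on 5 and Ern1 on 2 arrays, and Sdf2l1, Fkbp11, Syvn1, Derl3 and Sec61b on 0. Signals of those 5 lie in the range of the negative controls, and Derl3 exceeded even their median on only 3 arrays. All 6 hepatocyte markers were above the 95th percentile on every array, whereas 4 of 5 B and plasma cell markers (Jchain, Mzb1, Cd79a and Ms4a1) were below the median of the negative controls on all 20, as were 3 of 3 adipocyte markers. The mean signal of 8 Kupffer cell markers ranged over 7.66 to 10.76 in combined mice, 10.04 to 10.77 in PM2.5 mice, 9.27 to 9.61 in metformin mice and 9.60 to 10.47 in filtered-air mice. At an adjusted p under 0.05 in limma, 5 of these 8 markers were lower in the combined group than in filtered air. Against PM2.5, 6 were lower, and against metformin 1. Over all genes tested, 34.9%, 11.7% and 16.3% differed in these comparisons. The mean of 6 endothelial markers ranged over 9.11 to 10.30 in combined mice, 10.12 to 10.59 in PM2.5 mice, 9.42 to 9.92 in metformin mice and 9.97 to 10.07 in filtered-air mice. Of these, 3 were lower in the combined group than in PM2.5 and 3 were higher in PM2.5 than in metformin. Over all genes, 11.7% and 1.59% differed in these comparisons. At most 2 passed in any other pair. Of 4 stellate cell markers tested, 2 were lower in the combined group than in filtered air and 1 was higher and 1 lower than in metformin. The shares of all genes that differed were 34.9% and 16.3%. Combined mice 2 and 4 had the highest negative-control medians of the 20 arrays, 4.79 and 4.69, and mouse 2 had the lowest Kupffer level. Combined mouse 5 had the lowest mean correlation with its own group of the 20 arrays, 0.981. Its Kupffer level was 10.76, beside 9.05, 7.66, 8.62 and 8.77 in combined mice 1 to 4. Most differences of named genes in the combined group are also given without mice 2 and 4, and counts without mouse 5 are given with the other settings at the end. The part of these values in the results was not tested.

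Several of the genes carry the element through which ATF6 and XBP1 are known to act, and it is shown here because most chaperones followed below mouse by mouse hold a match, although Sdf2l1 does not and Hyou1 had no window. Windows from 250 bases before to 50 bases after the start, from RefSeq on GRCm38.p6, existed for 28 of the 32 genes and were read on both strands. The ER stress response element ERSE, which is CCAAT, 9 bases of any kind and CCACG, was present in 9 of the 28 genes (32.1%), against 0.137% of 27025 genes with such a window. The shorter ERSE-II, which is ATTGG, 1 base of any kind and CCACG, was present in 2 (7.14%), against 0.0444%. ERSE matches contain a CCAAT box, which by itself was in 78.6% of the 28 genes and 41.1% of all genes with a window. The matches read as follows along the gene's own strand, with the fixed bases in capitals. CGTGG and ATTGG are the complements of CCACG and CCAAT, where ERSE lies on the other strand.
Hspa5: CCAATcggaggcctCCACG
Hsp90b1: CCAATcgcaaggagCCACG
Calr: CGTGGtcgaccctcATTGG
Canx: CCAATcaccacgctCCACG
Creld2: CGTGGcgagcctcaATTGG
Dnajc3: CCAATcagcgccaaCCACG
Pdia6: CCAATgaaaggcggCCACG
Syvn1: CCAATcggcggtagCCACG
Derl3: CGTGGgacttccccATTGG
Herpud1: ATTGGgCCACG
Dnajb11: ATTGGcCCACG

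Hsp90b1 holds a second ERSE on the opposite strand. The match began 65 bases before the start in Hspa5, 44 in Syvn1 and 162 in Calr, and that of Dnajb11 began 8 bases after the start. The 250 bases upstream of Hspa5 (chr2:34771840-34772089, + strand) and of Herpud1 (chr8:94386179-94386428, + strand) show the full ERSE and ERSE-II in capitals, as these are the chaperone and the degradation gene on which much of what follows turns.
Hspa5: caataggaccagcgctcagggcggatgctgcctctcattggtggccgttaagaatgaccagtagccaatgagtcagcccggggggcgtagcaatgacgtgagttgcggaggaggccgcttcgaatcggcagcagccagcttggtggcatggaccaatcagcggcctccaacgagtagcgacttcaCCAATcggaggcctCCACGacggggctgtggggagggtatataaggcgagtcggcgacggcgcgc
Herpud1: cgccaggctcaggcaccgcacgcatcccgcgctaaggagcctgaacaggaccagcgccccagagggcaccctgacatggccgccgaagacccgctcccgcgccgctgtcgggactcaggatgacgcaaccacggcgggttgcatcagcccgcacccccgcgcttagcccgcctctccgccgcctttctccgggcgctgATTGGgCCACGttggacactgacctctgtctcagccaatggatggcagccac

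Another element, UPRE (TGACGTGG), was found in 1 of the 28 genes, Txndc5 (3.57%, against 0.714% of all genes with a window). A match is a description of letters and shows no binding. The windows of the other members, Xbp1, Pdia3, P4hb, Sdf2l1, Sel1l and Os9 among them, held none of the 3 elements in these letters, and Atf6, Derl1, Hyou1 and Sec61a1 had no window.

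Across the 4 groups, 20 of the 32 genes (62.5%) differed in limma's moderated F-test at an adjusted p under 0.05, against 32.1% of all genes tested. Genes rose or fell, in what follows, where limma's Benjamini-Hochberg adjusted p over all 11844 genes was under 0.05, and errors after ± are standard errors of the log2 difference. The combined group differed from filtered air in 16 genes (50.0%), 7 higher and 9 lower, against 34.9% of all genes. It differed from metformin alone in 12 genes (37.5%), all lower, against 16.3% of all genes (9.69% higher, 6.63% lower), and from PM2.5 alone in 2 genes, both higher, against 11.7% of all genes (6.95% higher, 4.73% lower).

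PM2.5 mice differed from filtered-air mice in 3 genes (9.38%), 2 higher and 1 lower, against 5.17% of all genes. With median centring 1 was higher and 2 lower, 2 of the 3 calls remaining and Os9 lost (adjusted p = 0.0527), and with quantile normalization 2 were higher and 3 lower, Ern1 and Sec61b being added. The PM2.5 group differed from metformin mice in 5 genes (15.6%), all lower, where 1.59% of all genes passed (0.946% higher, 0.642% lower). Metformin mice differed from filtered-air mice in 4 genes (12.5%), all higher, where 3.15% of all genes passed (1.26% higher, 1.89% lower). These comparisons share mice with each other, so that each is given by its own values. The fit takes 1 spread per gene from all 4 groups. Fitted on the 2 compared groups alone, PM2.5 against filtered air gave 9 genes, PM2.5 against metformin 0, the combined group against metformin 6 and against PM2.5 1. Over all genes these fits gave 770, 159, 1021 and 509 calls, where the fit of all 20 mice gave 612, 188, 1933 and 1383. The median log2 difference over the 32 genes was 0.30 for metformin against filtered air, -0.10 for PM2.5 against filtered air and -0.13 for the combined group against filtered air, beside 0.00, 0.02 and 0.01 over all genes tested.

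**Figure D1:**
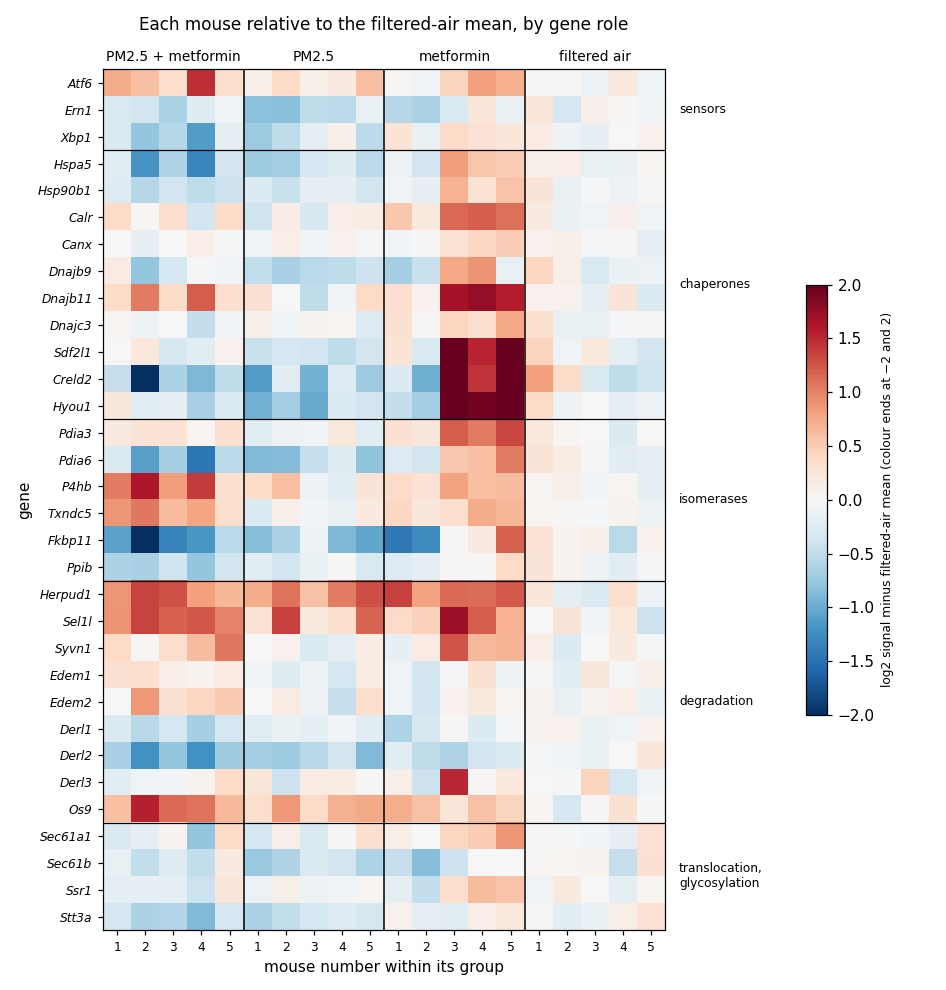
Log2 signal of each of the 32 genes (rows, grouped by role) in each of the 20 mice (columns, combined, PM2.5, metformin and filtered air from left to right), as the difference from the mean of the filtered-air mice. Metformin mice 3, 4 and 5 stand out as high in 8 of the 10 chaperones, Dnajb9 and Dnajc3 being the exceptions, and Herpud1 is high in all mice of the 3 treated groups.

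The groups did not overlap in 16 of the 32 genes for the combined group against filtered air, where 20.8% of all genes did not overlap. For PM2.5 against filtered air this held in 9 genes, 2 higher and 7 lower, against 6.94% of all genes, and for metformin against filtered air in 7 genes, 6 of them higher, against 6.75%. For PM2.5 against metformin it held in 6 genes, all lower, against 4.23%. The combined group did not overlap with metformin in 5 genes, all lower, against 9.31%, nor with PM2.5 in 2, against 6.34%. In 9 genes no comparison passed: Canx, Dnajb9, Ern1, Syvn1, Edem1, Derl3, Sec61a1, Sec61b and Ssr1.

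**Figure D2:**
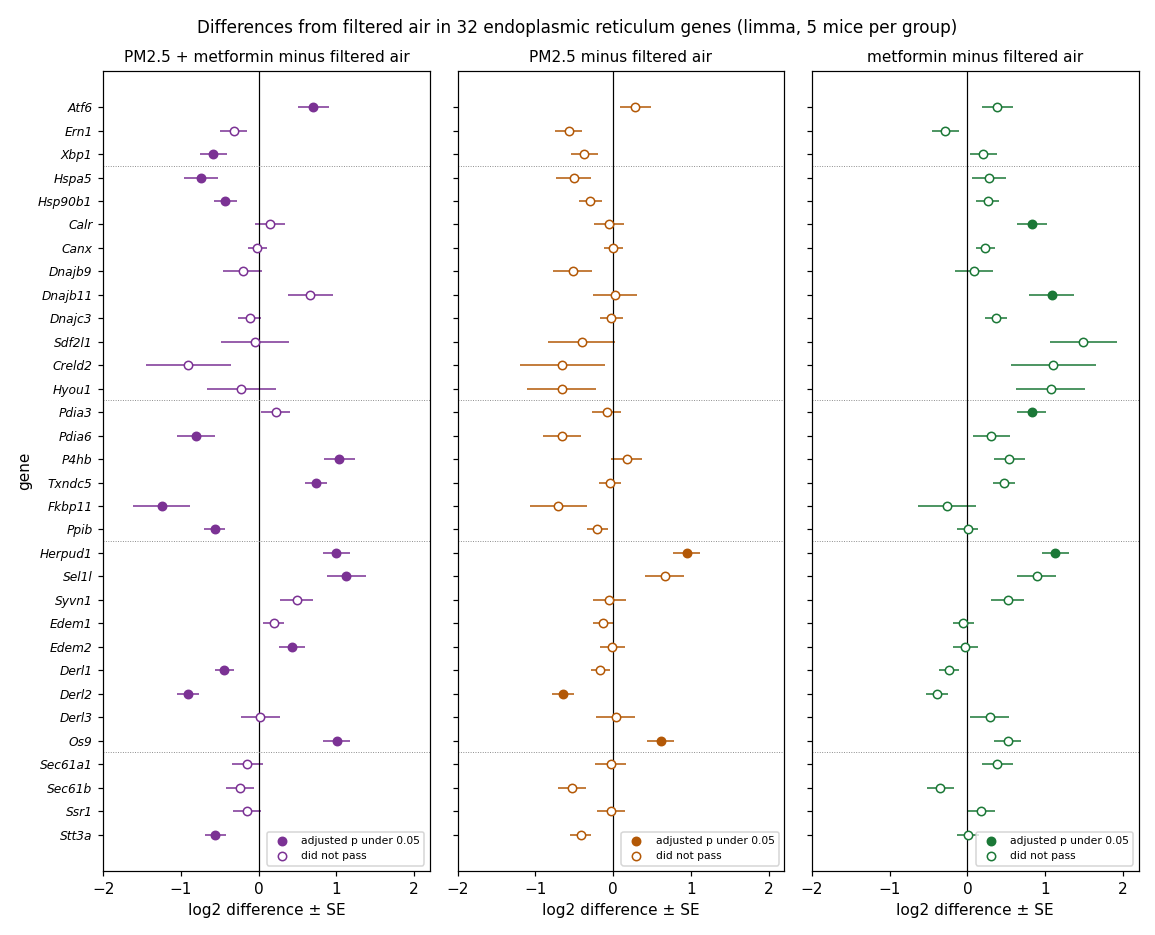
Log2 difference from filtered air, with its standard error, of each of the 32 genes (rows, dotted lines between roles) in the combined, PM2.5 and metformin groups (panels from left to right), filled where the adjusted p was under 0.05. The 4 genes called with metformin lie right of 0, the 16 called in the combined group lie on both sides, and Herpud1 is filled in all 3 panels.

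Among the 3 sensors and factors, Atf6 was higher and Xbp1 lower in the combined group than in filtered air. Atf6 encodes the membrane-bound factor that is cut during ER stress. It had log2 signals of 13.06, 12.92, 12.67, 13.79 and 12.65 in combined mice, 12.44, 12.71, 12.44, 12.50 and 12.92 in PM2.5 mice, 12.35, 12.24, 12.77, 13.13 and 13.02 in metformin mice, and 12.28, 12.35, 12.20, 12.52 and 12.23 in filtered-air mice. Every combined mouse lay above every filtered-air mouse, and combined mouse 4 was the highest of all. The difference between the combined group and filtered air was 0.70 ± 0.20 (adjusted p = 0.00958), and without combined mice 2 and 4 it was 0.48 (adjusted p = 0.0831).

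Xbp1, the factor whose mRNA IRE1 splices, gave 14.88, 14.40, 14.60, 14.06 and 14.99 in combined mice, 14.45, 14.66, 14.98, 15.28 and 14.65 in PM2.5 mice, 15.44, 15.03, 15.55, 15.46 and 15.40 in metformin mice, and 15.34, 15.08, 15.02, 15.18 and 15.26 in filtered-air mice. All combined mice lay below all metformin and all filtered-air mice, with mouse 4 the lowest. Xbp1 fell by 0.59 ± 0.17 (adjusted p = 0.0123) against filtered air and by 0.79 ± 0.17 (adjusted p = 0.00514) against metformin. Leaving out combined mice 2 and 4 gave -0.35 (adjusted p = 0.159) and -0.55 (adjusted p = 0.073).

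Ern1, the gene of IRE1, had 7.82, 7.76, 7.50, 7.88 and 8.06 in combined mice, 7.30, 7.29, 7.62, 7.60 and 7.98 in PM2.5 mice, 7.56, 7.49, 7.82, 8.37 and 7.98 in metformin mice, and 8.37, 7.80, 8.24, 8.16 and 8.07 in filtered-air mice and exceeded the 95th percentile of the negative controls in only 2 of the 20 mice. The groups overlapped in every pair, and no comparison passed. The difference between PM2.5 and filtered air was -0.57 ± 0.17 (adjusted p = 0.0551), which passed with quantile normalization (adjusted p = 0.0454) and median centring (adjusted p = 0.0431).

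The chaperones and co-chaperones were highest in the metformin group: all 10 had their highest group mean there, against 17.5% of all genes tested. All 10 also had their widest SD there, against 21.6% of all genes tested. Metformin mice 3, 4 and 5 were above metformin mice 1 and 2 in each, as in 14.1% of all genes tested. In 8 of the 10 they were also above all 17 other mice, beside 0.625% of all genes tested, with Dnajb9 and Dnajc3 the exceptions. These 3 mice were singled out from the values themselves. Averaged over the 10 genes, the log2 signal relative to the filtered-air mean was 1.45, 1.03 and 1.20 in metformin mice 3, 4 and 5, but -0.02 and -0.26 in mice 1 and 2. In combined mice this average lay between -0.37 and 0.02, in PM2.5 mice between -0.43 and -0.18, and in filtered-air mice between -0.14 and 0.31. The labels give the 5 metformin mice 1 treatment. The submitters' sample numbers of mice 3, 4 and 5 are consecutive and those of mice 1 and 2 are not, and the labels do not say what these numbers stand for. The negative-control medians of metformin mice 3, 4 and 5 were 4.54, 4.52 and 4.45, beside 4.51 and 4.49 in mice 1 and 2, and Kupffer marker levels were 9.61, 9.27 and 9.59, beside 9.57 and 9.60.

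Calr and Dnajb11 rose with metformin against filtered air, 2 of the 10 chaperones, where 1.26% of all genes rose, and the median difference of the 10 was 0.60. Calr encodes calreticulin, a lectin chaperone of the ER lumen. Its signals were 16.29, 15.93, 16.23, 15.53 and 16.29 in combined mice, 15.51, 16.06, 15.58, 16.05 and 16.07 in PM2.5 mice, 16.44, 16.11, 17.05, 17.10 and 17.02 in metformin mice, and 16.09, 15.77, 15.84, 16.01 and 15.85 in filtered-air mice. All metformin mice exceeded all filtered-air mice, and mice 3, 4 and 5 exceeded every other mouse. Calr was higher with metformin than in filtered air by 0.83 ± 0.19 (adjusted p = 0.0213), but the call was lost without metformin mice 3, 4 or 5 or filtered-air mice 2 or 5 (adjusted p = 0.0508 to 0.0707). In PM2.5 mice it was lower than in metformin mice by 0.89 ± 0.19 (adjusted p = 0.025), lost without PM2.5 mouse 3 or metformin mice 3, 4 or 5 (adjusted p = 0.0509 to 0.0745). In combined mice it was lower than in metformin mice by 0.69 ± 0.19 (adjusted p = 0.019), lost without combined mouse 4 or metformin mice 4 or 5 (adjusted p = 0.053 to 0.0676), and the difference was -0.47 (adjusted p = 0.184) without combined mice 2 and 4.

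Dnajb11 (ERdj3), a co-chaperone of the protein BiP, had 8.75, 9.44, 8.76, 9.61 and 8.72 in combined mice, 8.69, 8.38, 7.88, 8.34 and 8.79 in PM2.5 mice, 8.73, 8.48, 10.06, 10.14 and 9.96 in metformin mice, and 8.48, 8.48, 8.22, 8.66 and 8.12 in filtered-air mice. Metformin mice 3, 4 and 5 and combined mice 2 and 4 were high, and all other mice were lower. The difference between metformin and filtered air was 1.08 ± 0.29 (adjusted p = 0.0406), a 2.12-fold ratio, and the call was lost without metformin mice 3, 4 or 5 or filtered-air mice 1, 2, 3 or 5 (adjusted p = 0.0746 to 0.116). Fitted on metformin and filtered-air mice alone it did not pass, while Calr did.

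Hspa5 encodes BiP, the main Hsp70 chaperone of the ER and the usual marker of the unfolded protein response. Its signals were 16.95, 16.00, 16.57, 15.87 and 16.79 in combined mice, 16.46, 16.48, 16.84, 16.93 and 16.63 in PM2.5 mice, 17.06, 16.80, 18.02, 17.74 and 17.68 in metformin mice, and 17.28, 17.30, 17.03, 17.04 and 17.22 in filtered-air mice. Metformin mice 3, 4 and 5 were the highest of the 20, and all combined mice lay below all filtered-air mice. Hspa5 fell in the combined group by 0.74 ± 0.22 (adjusted p = 0.0124) against filtered air and by 1.02 ± 0.22 (adjusted p = 0.00436) against metformin, a 2.03-fold ratio. With combined mice 2 and 4 left out, the differences were -0.41 (adjusted p = 0.191) and -0.69 (adjusted p = 0.073).

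All PM2.5 mice were also below all filtered-air mice in Hspa5, with a difference of -0.51 ± 0.22 (adjusted p = 0.175) that did not pass in the fit of all 20 mice. Fitted on PM2.5 and filtered-air mice alone, where neither combined nor metformin mice enter the spread, its adjusted p was 0.0409. The difference between metformin and filtered air was 0.28 ± 0.22 (adjusted p = 0.53).

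Hsp90b1 (GRP94), the Hsp90 of the ER, gave 16.32, 16.01, 16.19, 16.06 and 16.15 in combined mice, 16.30, 16.14, 16.38, 16.37 and 16.21 in PM2.5 mice, 16.51, 16.41, 17.27, 16.85 and 17.15 in metformin mice, and 16.84, 16.43, 16.56, 16.46 and 16.60 in filtered-air mice. Combined mice were below filtered-air mice and below metformin mice without overlap. The falls were 0.43 ± 0.15 (adjusted p = 0.0291) and 0.69 ± 0.15 (adjusted p = 0.00436). The first was lost without combined mice 2 or 4 or filtered-air mice 1 or 5 (adjusted p = 0.0504 to 0.0843), and without combined mice 2 and 4 together the differences were -0.36 (adjusted p = 0.15) and -0.62 (adjusted p = 0.0489).

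**Figure D3:**
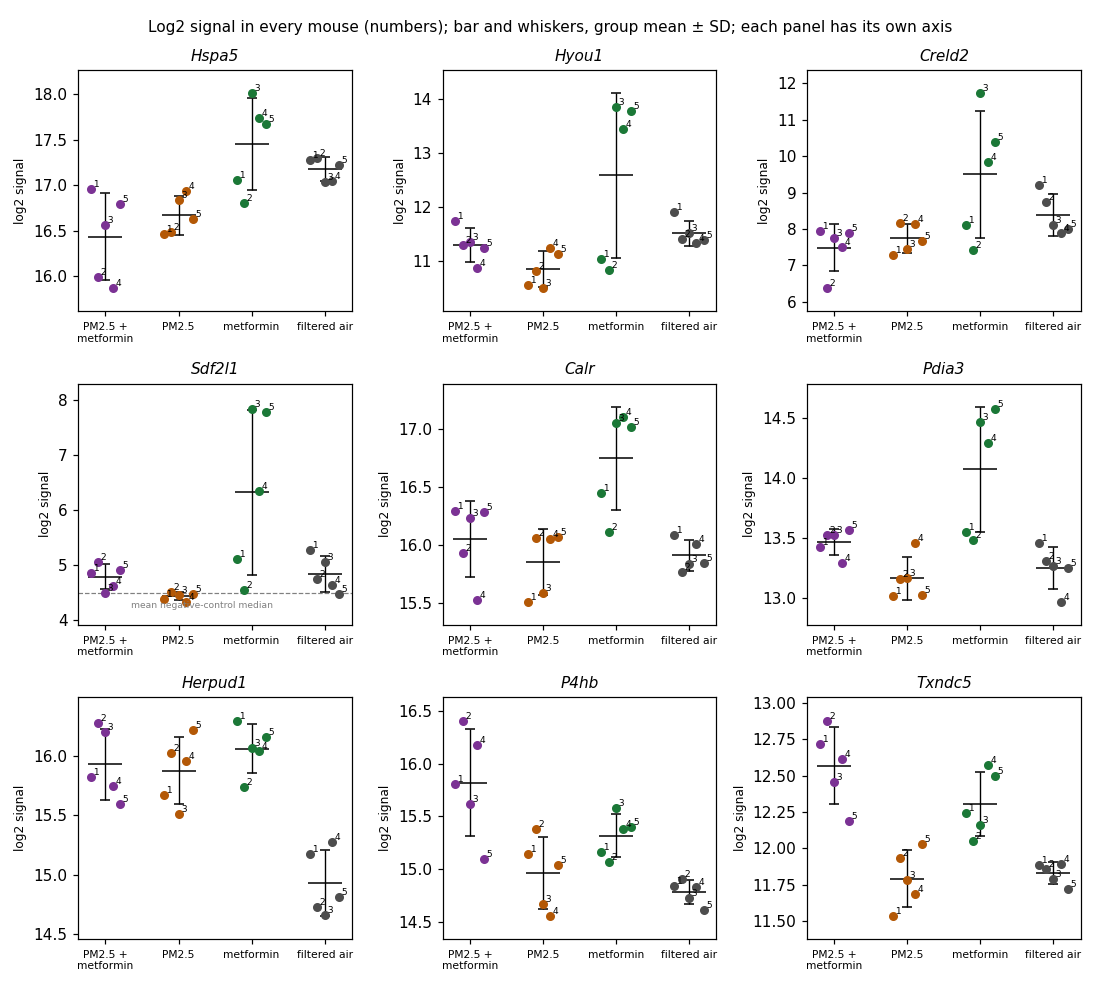
Log2 signal in each mouse (points, with mouse numbers) and the group mean with its SD (bar and whiskers) for 9 genes, 1 panel and axis per gene, with combined, PM2.5, metformin and filtered air from left to right and the mean negative-control median as a dashed line for Sdf2l1. In Hspa5, Creld2, Hyou1 and Pdia3 metformin mice 3, 4 and 5 lie apart from mice 1 and 2, while in Herpud1 the 15 mice of the 3 treated groups lie above the 5 filtered-air mice.

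Hyou1 (GRP170), a nucleotide exchange factor of BiP, showed the split among metformin mice most plainly. It had 11.74, 11.29, 11.35, 10.87 and 11.24 in combined mice, 10.56, 10.83, 10.51, 11.24 and 11.14 in PM2.5 mice, 11.04, 10.83, 13.86, 13.44 and 13.77 in metformin mice, and 11.91, 11.41, 11.52, 11.34 and 11.40 in filtered-air mice. Metformin mice 1 and 2 were within the range of PM2.5 mice, and mice 3, 4 and 5 were above all other mice. PM2.5 mice were lower than metformin mice by 1.73 ± 0.44 (adjusted p = 0.0496), lost without PM2.5 mice 1, 2, 3, 4 or 5 or metformin mice 3, 4 or 5 (adjusted p = 0.0742 to 0.14). The difference between metformin and filtered air, 1.07 ± 0.44 (adjusted p = 0.191), did not pass.

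Creld2 encodes an ER-stress-inducible protein of the ER lumen. Signals were 7.93, 6.38, 7.75, 7.49 and 7.88 in combined mice, 7.28, 8.17, 7.45, 8.13 and 7.68 in PM2.5 mice, 8.12, 7.41, 11.73, 9.83 and 10.39 in metformin mice, and 9.22, 8.75, 8.10, 7.89 and 7.99 in filtered-air mice. Metformin mouse 3 was the highest and combined mouse 2 the lowest. The difference between the combined group and metformin was -2.01 ± 0.55 (adjusted p = 0.0163), and without combined mice 2 and 4 the difference was -1.64 (adjusted p = 0.134).

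Sdf2l1, a partner of BiP and ERdj3, read 4.85, 5.04, 4.49, 4.62 and 4.91 in combined mice, 4.38, 4.50, 4.45, 4.33 and 4.47 in PM2.5 mice, 5.10, 4.54, 7.83, 6.35 and 7.78 in metformin mice, and 5.27, 4.74, 5.05, 4.64 and 4.46 in filtered-air mice. Metformin mice 3, 4 and 5 were the highest, and the other mice lay between 4.33 and 5.27, close to the negative-control medians of 4.34 to 4.79. PM2.5 mice were lower than metformin mice by 1.89 ± 0.43 (adjusted p = 0.0304), lost without PM2.5 mice 2, 3, 4 or 5 or metformin mice 3, 4 or 5 (adjusted p = 0.0501 to 0.0849). Combined mice were lower than metformin mice by 1.54 ± 0.43 (adjusted p = 0.0193), lost without metformin mice 3 or 5 (adjusted p = 0.0552 to 0.0632), and the difference was -1.57 (adjusted p = 0.0844) without combined mice 2 and 4.

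Dnajc3 (p58IPK), a co-chaperone of BiP that also inhibits PERK, had 13.99, 13.83, 13.95, 13.46 and 13.88 in combined mice, 14.05, 13.85, 14.01, 13.999 and 13.67 in PM2.5 mice, 14.24, 13.96, 14.37, 14.26 and 14.70 in metformin mice, and 14.26, 13.79, 13.78, 13.89 and 13.97 in filtered-air mice. The groups overlapped, with metformin mouse 5 highest and combined mouse 4 lowest. The combined group was lower than metformin by 0.48 ± 0.14 (adjusted p = 0.0264), lost without combined mouse 4 or metformin mice 3 or 5 (adjusted p = 0.0506 to 0.0881), and was -0.37 (adjusted p = 0.181) without combined mice 2 and 4.

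Of the 10 chaperones, 6 were lower in the combined group than in metformin, where 6.63% of all genes were lower, and 3 lower in PM2.5 than in metformin, where 0.642% were. Fitted on the 2 compared groups alone, only Hspa5 and Hsp90b1 of the 6 passed, and 0 of the 3. Without combined mice 2 and 4, 1 of the 6 passed, Hsp90b1. Canx (calnexin), the membrane-bound relative of calreticulin, spanned 14.31 to 14.99 over all 20 mice. Dnajb9 (ERdj4), a co-chaperone that holds IRE1 in check, spanned 12.21 to 13.88. Neither passed in any comparison in the fit of all 20 mice. In 4 of the 10 chaperones, Hspa5, Hsp90b1, Hyou1 and Dnajb9, all PM2.5 mice were below all filtered-air mice. Over all genes, 6.94% did not overlap in this comparison. Fitted on PM2.5 and filtered-air mice alone, Hyou1 differed by -0.66 (adjusted p = 0.0353) and Dnajb9 by -0.52 (adjusted p = 0.0493), and Hsp90b1 did not pass. Of the isomerases, Pdia6 differed by -0.65 (adjusted p = 0.0288) and Fkbp11 by -0.70 (adjusted p = 0.0441) in that fit. None of these passed for PM2.5 against filtered air in the fit of all 20 mice.

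Members with an ERSE or ERSE-II match, 11 genes, had a median metformin difference of 0.37 against filtered air, and all 11 differences were above 0, 3 of which passed. The 17 genes with a window but neither match had a median of 0.08, with 11 differences above 0 and 1 that passed. Over all genes tested, 5962 of 11844 differences were above 0 and 1.26% rose. For PM2.5 against metformin the medians of the 2 sets were -0.57 and -0.29. For the combined group against filtered air they were -0.02 and -0.15. Most of the genes with a match are chaperones, in which metformin mice 3, 4 and 5 were above mice 1 and 2. Signals of Derl3 and Syvn1 with a match, and of Sdf2l1, Fkbp11 and Sec61b without, lie in the range of the negative controls. These are descriptions of the 2 sets, with no test between them.

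In the foldases, P4hb and Txndc5 rose in the combined group while Pdia6, Fkbp11 and Ppib fell against filtered air, and Pdia3 rose with metformin. P4hb, the classical protein disulfide isomerase, had 15.80, 16.41, 15.62, 16.18 and 15.09 in combined mice, 15.14, 15.38, 14.67, 14.56 and 15.04 in PM2.5 mice, 15.16, 15.07, 15.58, 15.38 and 15.40 in metformin mice, and 14.84, 14.90, 14.73, 14.83 and 14.61 in filtered-air mice. Combined mice 2 and 4 were the highest, and all combined mice were above all filtered-air mice. P4hb rose by 1.04 ± 0.20 (adjusted p = 0.000491) against filtered air, a 2.05-fold ratio, and by 0.86 ± 0.20 (adjusted p = 0.00897) against PM2.5. Without combined mice 2 and 4 the differences were 0.73 (adjusted p = 0.0112) and 0.55 (adjusted p = 0.155). All metformin mice were also above all filtered-air mice, with a difference of 0.54 that did not pass in the fit of all 20 mice. It passed in the fit of these groups alone (adjusted p = 0.0368) and with array weights (adjusted p = 0.0464).

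Txndc5 (ERp46), a thioredoxin-domain disulfide isomerase, had 12.72, 12.88, 12.45, 12.61 and 12.19 in combined mice, 11.54, 11.93, 11.78, 11.68 and 12.03 in PM2.5 mice, 12.24, 12.05, 12.16, 12.57 and 12.50 in metformin mice, and 11.89, 11.86, 11.79, 11.89 and 11.72 in filtered-air mice. Every combined mouse exceeded every PM2.5 and every filtered-air mouse. The rise was 0.74 ± 0.14 (adjusted p = 0.000473) against filtered air and 0.78 ± 0.14 (adjusted p = 0.0021) against PM2.5. Both passed without combined mice 2 and 4, at 0.62 (adjusted p = 0.00859) and 0.66 (adjusted p = 0.0339). All metformin mice were also above all filtered-air mice, a difference that did not pass in the fit of all 20 mice. With array weights it was 0.51 (adjusted p = 0.0172).

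Pdia3 (ERp57), the isomerase that works with calnexin and calreticulin, had 13.43, 13.52, 13.53, 13.29 and 13.56 in combined mice, 13.02, 13.15, 13.17, 13.46 and 13.02 in PM2.5 mice, 13.55, 13.48, 14.46, 14.29 and 14.58 in metformin mice, and 13.45, 13.31, 13.26, 12.97 and 13.24 in filtered-air mice. Metformin mice 3, 4 and 5 were again highest, and all metformin mice were above all filtered-air and all PM2.5 mice. Pdia3 rose with metformin against filtered air by 0.82 ± 0.18 (adjusted p = 0.0175), lost without metformin mouse 3 (adjusted p = 0.0587). It was lower in PM2.5 than in metformin by 0.91 ± 0.18 (adjusted p = 0.0163), lost without PM2.5 mouse 5 or metformin mouse 5 (adjusted p = 0.05 to 0.0514). It was lower in the combined group than in metformin by 0.61 ± 0.18 (adjusted p = 0.0279), lost without combined mouse 4 or metformin mice 3, 4 or 5 (adjusted p = 0.0653 to 0.0895), and was -0.57 (adjusted p = 0.134) without combined mice 2 and 4.

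Pdia6 (P5), a disulfide isomerase that binds BiP, gave 14.23, 13.44, 13.85, 13.08 and 13.97 in combined mice, 13.63, 13.65, 14.06, 14.28 and 13.71 in PM2.5 mice, 14.26, 14.15, 15.06, 15.12 and 15.54 in metformin mice, and 14.77, 14.67, 14.50, 14.29 and 14.36 in filtered-air mice. Metformin mice 3, 4 and 5 were highest and combined mice 2 and 4 lowest. The combined group was lower by 0.80 ± 0.24 (adjusted p = 0.0137) against filtered air and by 1.11 ± 0.24 (adjusted p = 0.00475) against metformin. The first was lost without combined mouse 4 (adjusted p = 0.0506), and without mice 2 and 4 together the differences were -0.50 (adjusted p = 0.169) and -0.81 (adjusted p = 0.0728). PM2.5 mice were lower than metformin mice by 0.96 ± 0.24 (adjusted p = 0.0468), lost without PM2.5 mice 1, 2, 3, 4 or 5 or metformin mice 3, 4 or 5 (adjusted p = 0.0587 to 0.129).

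Ppib (cyclophilin B), a prolyl isomerase of the ER, gave 13.40, 13.40, 13.64, 13.26 and 13.67 in combined mice, 13.82, 13.66, 13.91, 14.07 and 13.73 in PM2.5 mice, 13.78, 13.87, 14.06, 14.06 and 14.44 in metformin mice, and 14.30, 14.11, 13.94, 13.82 and 14.02 in filtered-air mice. Combined mice were below filtered-air and metformin mice without overlap. The falls were 0.57 ± 0.14 (adjusted p = 0.00341) and 0.57 ± 0.14 (adjusted p = 0.00893), and without combined mice 2 and 4 the differences were -0.47 (adjusted p = 0.0397) and -0.47 (adjusted p = 0.0865).

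Fkbp11, another prolyl isomerase, read 6.00, 4.96, 5.75, 5.91 and 6.54 in combined mice, 6.23, 6.45, 6.97, 6.19 and 6.05 in PM2.5 mice, 5.65, 5.81, 7.11, 7.25 and 8.26 in metformin mice, and 7.35, 7.16, 7.18, 6.54 and 7.17 in filtered-air mice, all below the 95th percentile of the negative controls. No combined mouse exceeded the lowest filtered-air mouse, combined mouse 2 was the lowest of all, and metformin mice were spread most widely. The difference between the combined group and filtered air was -1.25 ± 0.37 (adjusted p = 0.0119), and -0.98 (adjusted p = 0.096) without combined mice 2 and 4.

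The degradation genes were led by Herpud1, which was higher in each of the 3 treated groups than in filtered air. Herpud1 encodes a membrane protein that recruits the degradation machinery and is a classical ER-stress target. It had 15.82, 16.28, 16.20, 15.75 and 15.60 in combined mice, 15.67, 16.02, 15.51, 15.96 and 16.22 in PM2.5 mice, 16.30, 15.74, 16.07, 16.04 and 16.16 in metformin mice, and 15.18, 14.73, 14.66, 15.27 and 14.81 in filtered-air mice. Every treated mouse was above every filtered-air mouse, and the treated groups overlapped each other. The rises were 1.00 ± 0.17 (adjusted p = 0.000196) in the combined group, 0.95 ± 0.17 (adjusted p = 0.0034) in PM2.5 and 1.13 ± 0.17 (adjusted p = 0.000695) in metformin, ratios of 2, 1.93 and 2.19.

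All 3 rises of Herpud1 passed without any 1 mouse, and the combined rise passed without combined mice 2 and 4, at 0.94 (adjusted p = 0.00266). Herpud1 also had the lowest adjusted p of the 32 genes in the interaction, the metformin difference under PM2.5 minus that without PM2.5. The metformin difference was 0.05 under PM2.5 and 1.13 without PM2.5, and the interaction of -1.08 ± 0.24 (adjusted p = 0.0646) did not pass. It passed in 7 of 30 alternatives, with adjusted p between 0.0312 and 0.141, and was -1.14 (adjusted p = 0.0921) without combined mice 2 and 4. Of the 32 genes, 0 passed the interaction in limma, where 0.186% of all genes passed. Under an unadjusted p of 0.05 lay 5 of the 32 genes, beside 1545 of the 11844 genes tested.

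Sel1l, the scaffold of the Hrd1 ubiquitin ligase, had 11.47, 11.92, 11.75, 11.81 and 11.57 in combined mice, 10.84, 11.94, 10.76, 10.91 and 11.73 in PM2.5 mice, 10.96, 11.03, 12.28, 11.79 and 11.27 in metformin mice, and 10.56, 10.83, 10.53, 10.79 and 10.17 in filtered-air mice. All combined and all metformin mice were above all filtered-air mice, and PM2.5 mice 2 and 5 were high while mice 1, 3 and 4 were not. Sel1l rose in the combined group by 1.13 ± 0.25 (adjusted p = 0.00146), the largest rise among the 32 genes in that comparison, and by 1.02 (adjusted p = 0.0189) without combined mice 2 and 4. Metformin against filtered air gave 0.89 ± 0.25 (adjusted p = 0.0509) and did not pass.

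Os9, a lectin that delivers misfolded glycoproteins to the Hrd1 complex, had 11.94, 12.90, 12.47, 12.42 and 11.98 in combined mice, 11.69, 12.21, 11.72, 12.04 and 12.09 in PM2.5 mice, 12.06, 11.92, 11.58, 11.92 and 11.79 in metformin mice, and 11.37, 10.99, 11.37, 11.65 and 11.31 in filtered-air mice. All combined and all PM2.5 mice were above all filtered-air mice. It rose by 1.00 ± 0.17 (adjusted p = 0.000214) in the combined group, and by 0.79 (adjusted p = 0.00429) without mice 2 and 4. In PM2.5 it rose by 0.61 ± 0.17 (adjusted p = 0.0427), lost without PM2.5 mice 2, 4 or 5 or filtered-air mice 1, 2, 3 or 5 (adjusted p = 0.0663 to 0.133).

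Edem2, a mannosidase that marks glycoproteins for degradation, had 9.55, 10.41, 9.84, 9.97 and 10.07 in combined mice, 9.56, 9.71, 9.43, 9.09 and 9.89 in PM2.5 mice, 9.46, 9.16, 9.64, 9.73 and 9.59 in metformin mice, and 9.62, 9.40, 9.61, 9.68 and 9.41 in filtered-air mice. Combined mouse 2 was highest and the groups overlapped. It rose in the combined group by 0.43 ± 0.16 (adjusted p = 0.0479), lost without combined mice 2, 3, 4 or 5 or filtered-air mice 1, 2, 3 or 5 (adjusted p = 0.0543 to 0.149), and was 0.28 (adjusted p = 0.277) without combined mice 2 and 4 together.

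Derl2 went the other way. It encodes a derlin, a membrane protein of the channel through which misfolded proteins leave the ER, and gave 13.60, 13.04, 13.48, 13.04 and 13.53 in combined mice, 13.56, 13.52, 13.70, 13.89 and 13.36 in PM2.5 mice, 14.03, 13.73, 13.65, 13.87 and 13.98 in metformin mice, and 14.23, 14.17, 14.10, 14.25 and 14.49 in filtered-air mice. Every filtered-air mouse was above every treated mouse. Derl2 fell by 0.91 ± 0.14 (adjusted p = 8.32e-05) in the combined group and by 0.64 ± 0.14 (adjusted p = 0.0114) in PM2.5, and differed by -0.40 ± 0.14 (adjusted p = 0.125) with metformin.

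The combined fall of Derl2 passed without combined mice 2 and 4, at -0.71 (adjusted p = 0.00222). Against metformin the combined group was lower by 0.51 ± 0.14 (adjusted p = 0.017), lost without combined mice 2 or 4 (adjusted p = 0.0523 to 0.0575), and the difference was -0.32 (adjusted p = 0.199) without both.

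Derl1, a second derlin, gave 13.59, 13.33, 13.55, 13.22 and 13.53 in combined mice, 13.66, 13.76, 13.70, 13.83 and 13.68 in PM2.5 mice, 13.27, 13.56, 13.91, 13.62 and 13.87 in metformin mice, and 13.96, 13.97, 13.73, 13.80 and 13.97 in filtered-air mice. Combined mice were below filtered-air and PM2.5 mice without overlap. It fell by 0.44 ± 0.13 (adjusted p = 0.00993) against filtered air, and was -0.33 (adjusted p = 0.0995) without combined mice 2 and 4. Derl3 spanned 3.68 to 5.61 over all mice, at the level of the negative controls.

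Syvn1 (Hrd1), the ubiquitin ligase itself, spanned 5.18 to 6.72, and Edem1, another mannosidase, 12.80 to 13.49, and neither passed in a comparison. Of the 9 degradation genes, 4 rose and 2 fell in the combined group against filtered air, and 2 rose and 1 fell in PM2.5, where 34.9% and 5.17% of all genes passed. Their median differences were 0.43 and -0.01.

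Of the 4 genes of translocation and glycosylation only Stt3a passed, and it fell in the combined group. Stt3a encodes a catalytic subunit of the oligosaccharyltransferase, which adds glycans to entering proteins. It had 15.34, 15.07, 15.11, 14.81 and 15.36 in combined mice, 15.06, 15.20, 15.34, 15.44 and 15.35 in PM2.5 mice, 15.78, 15.54, 15.47, 15.83 and 15.91 in metformin mice, and 15.66, 15.48, 15.56, 15.81 and 15.98 in filtered-air mice. Combined mice and PM2.5 mice were below all filtered-air and all metformin mice. The combined falls were 0.56 ± 0.14 (adjusted p = 0.00363) against filtered air and 0.57 ± 0.14 (adjusted p = 0.00883) against metformin, and without mice 2 and 4 the differences were -0.42 (adjusted p = 0.0484) and -0.43 (adjusted p = 0.0966). The PM2.5 difference from filtered air was -0.42 ± 0.14 (adjusted p = 0.0762). Sec61a1 and Sec61b, subunits of the channel through which proteins enter the ER, spanned 13.58 to 15.23 and 6.65 to 7.81, and Ssr1, of the translocon-associated complex, 12.13 to 13.24.

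The calls of the combined group depended on 2 settings that bear on mice 2 and 4. With the negative-control median as a covariate, 3 of the 16 calls against filtered air remained, Herpud1, Derl2 and Os9, and all 16 differences kept their sign. Without combined mice 2 and 4, 8 of the 16 remained: P4hb, Txndc5, Ppib, Herpud1, Sel1l, Derl2, Os9 and Stt3a. With the covariate, the other 13 had adjusted p from 0.0738 to 0.711. Over all genes, the 4136 calls against filtered air became 1054 with the covariate and 2544 without the 2 mice. Against metformin, 7 of the 12 calls remained with the covariate (Xbp1, Hspa5, Hsp90b1, Sdf2l1, Pdia6, Ppib and Stt3a) and 1 without the 2 mice (Hsp90b1). Against PM2.5, 0 of the 2 remained with the covariate, in limma, and 1 without the 2 mice (Txndc5), whose covariate difference was 0.55 (adjusted p = 0.0872). Over all genes, the 1933 calls against metformin became 1008 and 499, and the 1383 against PM2.5 became 79 and 206. At an unadjusted p under 0.05, 10 of the 32 genes differed between the combined group and PM2.5 in the fit of all 20 mice. So did 3203 of the 11844 genes tested.

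**Figure D4:**
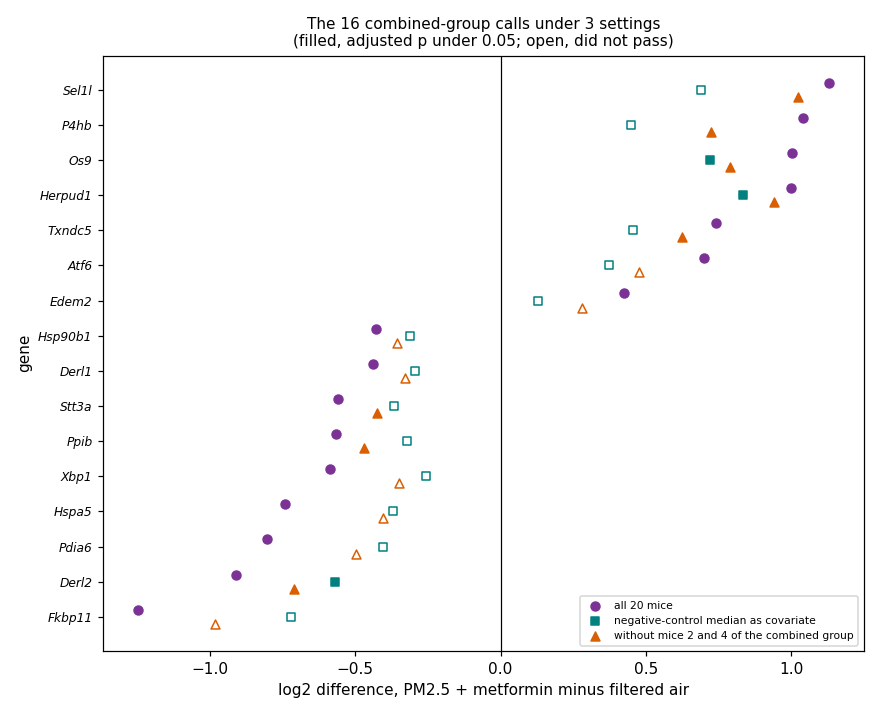
Log2 difference between the combined group and filtered air for the genes that passed in that comparison, under the fit of all 20 mice, with the negative-control median as covariate, and without combined mice 2 and 4, filled where the adjusted p was under 0.05. All differences keep their side of 0, and Herpud1, Derl2 and Os9 pass under each setting.

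Outside these 32 genes, 57 further genes of the ER were listed by role, of which 52 were tested, 2 were dim and 3 had no probe set. In the combined group against filtered air 8 rose and 14 fell (42.3%), beside 34.9% of all genes. PM2.5 against filtered air gave 1 rise and 4 falls (9.62%), beside 5.17%, and metformin against filtered air 1 rise and 2 falls (5.77%), beside 3.15%.

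Of 8 genes of sensing and PERK signalling tested, 1 rose and 1 fell against filtered air in the combined group and with metformin. With PM2.5, 1 rose. Over all genes, 34.9%, 3.15% and 5.17% passed in these comparisons. Atf4, the factor translated when PERK is active, had 12.59, 12.88, 12.34, 12.59 and 12.22 in combined mice, 12.94, 12.80, 12.78, 13.00 and 12.64 in PM2.5 mice, 12.39, 12.34, 12.06, 11.89 and 11.96 in metformin mice, and 12.90, 12.95, 13.10, 12.88 and 13.05 in filtered-air mice. All metformin mice were below all PM2.5 and all filtered-air mice. Atf4 fell with metformin by 0.85 ± 0.14 (adjusted p = 0.00139) and in the combined group by 0.45 ± 0.14 (adjusted p = 0.0139), which was -0.59 (adjusted p = 0.00764) without combined mice 2 and 4, and was higher in PM2.5 than in metformin by 0.70 ± 0.14 (adjusted p = 0.0149).

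Creb3l3 (CREBH), a liver factor cut like ATF6, rose in all 3 treated groups against filtered air. It had 13.61, 13.38, 13.70, 13.75 and 14.14 in combined mice, 13.82, 14.03, 13.69, 13.44 and 13.83 in PM2.5 mice, 13.81, 13.95, 14.59, 14.07 and 14.22 in metformin mice, and 13.03, 13.02, 13.37, 13.09 and 13.00 in filtered-air mice. All 15 treated mice were above all filtered-air mice. The rises were 0.61 ± 0.16 (adjusted p = 0.00519) in the combined group, 0.66 ± 0.16 (adjusted p = 0.0198) in PM2.5 and 1.03 ± 0.16 (adjusted p = 0.000953) with metformin, the PM2.5 rise lost without PM2.5 mice 2 or 5 or filtered-air mouse 1 (adjusted p = 0.0531 to 0.0785). Without combined mice 2 and 4 the combined difference was 0.71 (adjusted p = 0.00898).

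Ddit3 (CHOP), the factor of prolonged ER stress, spanned 7.03 to 7.87 in combined mice, 6.95 to 7.43 in PM2.5 mice, 6.88 to 7.59 in metformin mice and 7.07 to 8.05 in filtered-air mice, all below the 95th percentile of the negative controls. Trib3, a target of ATF4 and CHOP, spanned 5.02 to 5.67 in combined mice, 5.09 to 5.61 in PM2.5 mice, 5.23 to 5.49 in metformin mice and 5.23 to 5.65 in filtered-air mice. Neither gene passed in any pair comparison. Eif2ak3, the gene of PERK, was lower in the combined group than in PM2.5 by 0.47 ± 0.15 (adjusted p = 0.0466), lost without combined mice 2, 3 or 4 or PM2.5 mice 1, 3 or 5 (adjusted p = 0.0928 to 0.127), and the difference was -0.34 (adjusted p = 0.346) without combined mice 2 and 4.

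Of 14 further folding genes, 2 rose and 4 fell in the combined group against filtered air, where 34.9% of all genes passed. Sec63, a J-domain protein of the translocon, rose by 1.11 ± 0.19 (adjusted p = 0.000201) against filtered air and by 1.20 ± 0.19 (adjusted p = 0.000912) against PM2.5, and without combined mice 2 and 4 these were 0.88 (adjusted p = 0.00523) and 0.97 (adjusted p = 0.0199). Uggt1, which reglucosylates misfolded glycoproteins, rose by 1.13 ± 0.24 (adjusted p = 0.00116) and 1.18 ± 0.24 (adjusted p = 0.00431), and without the 2 mice these were 0.88 (adjusted p = 0.0213) and 0.94 (adjusted p = 0.0715). Fkbp14, a prolyl isomerase, fell by 1.38 ± 0.21 (adjusted p = 8.32e-05) in the combined group and by 1.23 ± 0.21 (adjusted p = 0.00275) with metformin, against filtered air in both, and was -1.01 (adjusted p = 0.00161) without combined mice 2 and 4. Ero1b and Pdia5, of disulfide formation, were lower in PM2.5 than in metformin by 1.02 ± 0.23 (adjusted p = 0.0303) and 0.85 ± 0.18 (adjusted p = 0.0225), lost without PM2.5 mice 2, 4 or 5 or metformin mice 3, 4 or 5 (adjusted p = 0.058 to 0.0912) for Ero1b and without PM2.5 mice 2 or 5 or metformin mice 4 or 5 (adjusted p = 0.0523 to 0.0772) for Pdia5. Ero1b was also lower in the combined group than in metformin. With 1 mouse left out at a time this difference was -1.32 to -0.95 (adjusted p = 0.00124 to 0.013). Metformin mice 3, 4 and 5 had 11.47, 11.58 and 11.85 in Ero1b, beside 10.37 and 10.49 in mice 1 and 2. Sdf2, a relative of Sdf2l1, fell in PM2.5 by 0.62 ± 0.17 (adjusted p = 0.0371), lost without PM2.5 mice 2, 3 or 5 or filtered-air mice 1, 2, 3 or 5 (adjusted p = 0.0592 to 0.116). Fkbp14, Pdia5 and Sdf2 exceeded the 95th percentile of the negative controls on 13, 11 and 9 of the 20 arrays.

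Of 18 further genes of translocation and glycosylation, 1 rose and 8 fell in the combined group against filtered air, and 0 rose and 6 fell against metformin, where 34.9% and 16.3% of all genes passed. The falls against filtered air were led by Ostc, of the oligosaccharyltransferase, with 1.38 ± 0.20 (adjusted p = 4.50e-05), and by Ssr3 and Ssr2, of the translocon-associated complex, with 0.85 ± 0.18 (adjusted p = 0.000977) and 0.75 ± 0.16 (adjusted p = 0.00114). These were, without combined mice 2 and 4, -1.08 (adjusted p = 0.000834), -0.50 (adjusted p = 0.0156) and -0.52 (adjusted p = 0.0254). In PM2.5 against filtered air Sec61g, the third subunit of the entry channel, fell by 0.93 ± 0.21 (adjusted p = 0.0125) and Ostc by 0.84 ± 0.20 (adjusted p = 0.0167), the second lost without PM2.5 mice 2 or 5 (adjusted p = 0.0588 to 0.0645). Against metformin, Ssr3 fell by 0.94 ± 0.18 (adjusted p = 0.00198) and Spcs2 and Spcs3, of the signal peptidase, by 0.73 ± 0.16 (adjusted p = 0.00514) and 0.79 ± 0.19 (adjusted p = 0.00736) in the combined group. Without mice 2 and 4 these were -0.59 (adjusted p = 0.0265), -0.56 (adjusted p = 0.0644) and -0.65 (adjusted p = 0.0776).

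Of 12 further degradation genes, 4 rose and 1 fell in the combined group against filtered air, where 34.9% of all genes passed. Erlec1, a lectin related to Os9, rose by 1.33 ± 0.20 (adjusted p = 6.11e-05) and Aup1, which recruits a ubiquitin-conjugating enzyme, by 1.22 ± 0.18 (adjusted p = 5.46e-05), and without combined mice 2 and 4 by 1.04 (adjusted p = 0.00162) and 1.05 (adjusted p = 0.00168). Against metformin they rose by 0.82 ± 0.20 (adjusted p = 0.00831) and 1.03 ± 0.18 (adjusted p = 0.00119), and without the 2 mice the differences were 0.54 (adjusted p = 0.118) and 0.85 (adjusted p = 0.0246). Aup1 exceeded the 95th percentile of the negative controls on 0 of the 20 arrays, so that its signals lie in their range. Selenok, a selenoprotein of the derlin complex, fell by 0.88 ± 0.17 (adjusted p = 0.000459) in the combined group and by 0.59 ± 0.17 (adjusted p = 0.0421) in PM2.5, the PM2.5 call lost without PM2.5 mice 2 or 5 or filtered-air mice 1, 2, 4 or 5 (adjusted p = 0.0558 to 0.145). Without combined mice 2 and 4 the combined difference of Selenok was -0.78 (adjusted p = 0.0084).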

How the data were processed

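RNA from 20 livers was hybridised to 20 Affymetrix arrays, 1 per mouse. The authors deposited log2 signals, 1 per probe set. Per the submitters' processing notes they used Affymetrix Expression Console, and neither its version nor the summary method is given in the sources used here. The array type in the series text does not match the deposited identifiers, so genes were named from the annotation of those identifiers. Of 28846 probe sets, 6640 were controls. The others covered 19505 genes, and 55 of these had more than 1 probe set, of which the brightest on average was used. Genes at or below log2 4.05, the 40th percentile of the non-control probe sets, were left out, which left 11844. Precision is limited by the number of arrays. The negative controls had a mean median of 4.49, above the filter, so some genes tested may be at background.

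Group means were compared with limma 3.58.1 in R 4.3.3, as 1 model of 4 groups with eBayes, 6 pair comparisons, the interaction and the moderated F-test, two-sided, with Benjamini-Hochberg adjustment over all genes tested. The labels do not say whether mice of a group shared a chamber or cage. The p-values set group differences against the spread between these mice. A chamber or cage effect shared by a group cannot be told apart from its treatment. The code was checked on simulated data. The genes, lists and tests were chosen with earlier results of these data known. All members were accounted for by role, with values per mouse for those that passed and for Hspa5, Xbp1, Atf6 and Ern1. Further ER genes were named for the lowest adjusted p, up to 3 per list and comparison, beside Ddit3, Atf4, Trib3 and Eif2ak3. Alternatives changed the filter, scaling, probe set rule, eBayes options, mice in the fit, a covariate and array weights.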

Additional observations from a re-analysis of the deposited data

Results flagged for a closer look

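Among 128 groups of 5 mice, 1 per gene and group, 2 held a mouse whose gap to the nearest other mouse, divided by the range of the group, exceeded Dixon's critical value of 0.71. Chance gives about 1 in 20 such groups. Creld2 was low in combined mouse 2, at 6.38 against 7.49 to 7.93 in the other combined mice (ratio 0.718). Fkbp11 was low in filtered-air mouse 4, at 6.54 against 7.16 to 7.35 in the other filtered-air mice (ratio 0.756). Combined mouse 2 also had the highest negative-control median of the 20 arrays, and the part of this in its Creld2 value was not tested.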

How the results depend on the processing

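No paired analysis was possible because the labels give no pairing and equal mouse numbers do not link mice. Of 7928 single differences of named genes under the alternatives, 7583 kept their side of the threshold, 224 no longer passed and 121 newly passed. A change of sign was counted only where the difference passed in the main fit or the alternative, and this held for 0. Differences that passed in neither may have changed sign. With 1 mouse left out at a time, the numbers of the 32 genes called were 13 to 16 for the combined group against filtered air (16 with all mice), 2 to 3 against PM2.5, 8 to 16 against metformin, 2 to 4 for PM2.5 against filtered air, 0 to 9 for PM2.5 against metformin, 1 to 7 for metformin against filtered air, 0 to 1 for the interaction and 17 to 22 in the F-test; 25 of the 42 calls in pairs passed without any 1 mouse. In the same order, the ranges over all genes were 3394 to 4338, 637 to 2143, 1138 to 2407 and 208 to 725. They continued with 49 to 260, 157 to 432, 7 to 289 and 2961 to 4247. PM2.5 against metformin gave 1, 1 and 0 genes without metformin mouse 3, 4 or 5, 9 without mouse 2, and 3, 2, 1, 2 and 1 without PM2.5 mouse 1 to 5, and metformin against filtered air gave 1, 2 and 2 without metformin mouse 3, 4 or 5, 7 without mouse 2, and 2 without filtered-air mouse 2 or 5. Over all genes, PM2.5 against metformin gave 86, 75 and 72 calls without metformin mouse 3, 4 or 5, and 162 without mouse 2. Without PM2.5 mouse 1 to 5 it gave 260, 77, 142, 71 and 49. Metformin against filtered air gave 157, 248 and 254 over all genes without metformin mouse 3, 4 or 5, and 296 without mouse 2. Without filtered-air mouse 2 or 5 it gave 171 and 194.

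Fitted on the compared mice alone, the counts were 1 for the combined group against PM2.5, 6 against metformin, 9 for PM2.5 against filtered air and 0 for PM2.5 against metformin, while calls over all genes were 509, 1021, 770 and 159 (1383, 1933, 612 and 188 with all mice). With the negative-control median as covariate they were 3 and 0 for the combined group against filtered air and PM2.5, 7 against metformin, 1 (Herpud1) in the interaction and 12 in the F-test, beside 1054, 79, 1008, 44 and 1598 over all genes (4136, 1383, 1933, 22 and 3807 without the covariate). Without combined mice 2 and 4 they were 8 against filtered air, 1 against PM2.5 and 1 against metformin, beside 2544, 206 and 499 over all genes. Without combined mouse 5 they were 15, 2 and 16, and 1 in the interaction, beside 4338, 2143, 2407 and 289 over all genes. With array weights they were 5 for PM2.5 against filtered air, 11 for PM2.5 against metformin, 9 for metformin against filtered air and 1 in the interaction. Over all genes these were 1376, 472, 854 and 108 calls, beside 612, 188, 373 and 22 without weights. Without a filter PM2.5 against metformin gave 3, with quantile normalization PM2.5 against filtered air gave 5 (2 higher, 3 lower; with median centring 1 higher, 2 lower), and with eBayes trend and robust options the interaction gave 1. Over all genes the calls were 121 without a filter, 661 with quantile normalization and 20 with the eBayes options. The causes were not tested. Rescaling moved the share of higher genes among all called in PM2.5 against metformin, 59.6% as deposited, to 50.2% with quantile normalization and 46.1% with median centring, while the members called were all lower under each. The 40th percentile taken over genes was added after the data were seen. Low signals limit Sdf2l1, Fkbp11, Syvn1, Derl3, Sec61b and, outside the 32 genes, Aup1, Ddit3 and Trib3.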
